A study of Mus musculus with 4 samples.

Results

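10 genes that mark the birth and early life of neurons were described in the dentate gyrus of handled control mice: Nes, Ccnd2, Top2a, Sox4, Sox11, Neurod1, Dcx, Tubb3, Stmn1 and Ncam1. They were chosen by symbol, taking each probe set annotated to one of these genes alone, which gave 17 of the 12488 probe sets on the array. The samples were 4 arrays of total RNA from the dentate gyrus of young male C57BL/6J mice that were handled and received nothing else. RNA was taken 1, 2, 4 or 6 h after a parallel group of mice had received its last shock, with 1 array at each hour, so an hour and its array cannot be told apart. The shocked mice were not analysed here, and no label says whether a sample pooled several mice.

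The dentate gyrus is one of the few regions of the adult mammalian brain in which neurons are still generated. Radial stem cells in the subgranular zone give rise to dividing progenitors, which leave the cell cycle as neuroblasts and mature into granule cells. Nestin marks the stem cells, D-type cyclins and topoisomerase drive or accompany division, SoxC and NeuroD factors switch on neuronal genes, and doublecortin, class III beta-tubulin, stathmin and polysialylated NCAM are used as the young neuron moves and extends processes. Stathmin, class III beta-tubulin and NCAM are also made by mature neurons, so in whole tissue they are not limited to young cells. In tissue RNA, fewer cells of a type and less RNA per cell cannot be told apart.

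Values are array intensities on a linear scale, given in the order 1, 2, 4 and 6 h. Intensities under 38.3, the 20th percentile of the table, were taken as floor values, and a probe set was tested if its mean log2 intensity was at least 6.91, which 6500 of 10833 probe sets with a single gene symbol met. Of the 17 member probe sets 12 passed, for 9 of the 10 genes, and Top2a was the gene with none. The median intensity of all probe sets was between 184.8 and 212.8 on the 4 arrays. Between pairs of arrays the SD of the log2 differences over the tested probe sets ran from 0.52 to 0.643. Calb1, the calcium-binding protein of mature granule cells, had a mean of 2632 ± 265 (SD, n = 4), and of the 8 granule cell markers with a probe set 7 passed the filter. The granule cell regulator Prox1, named after its values were seen, read 184.2, 153.5, 182 and 249.1.

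**Figure D1:**
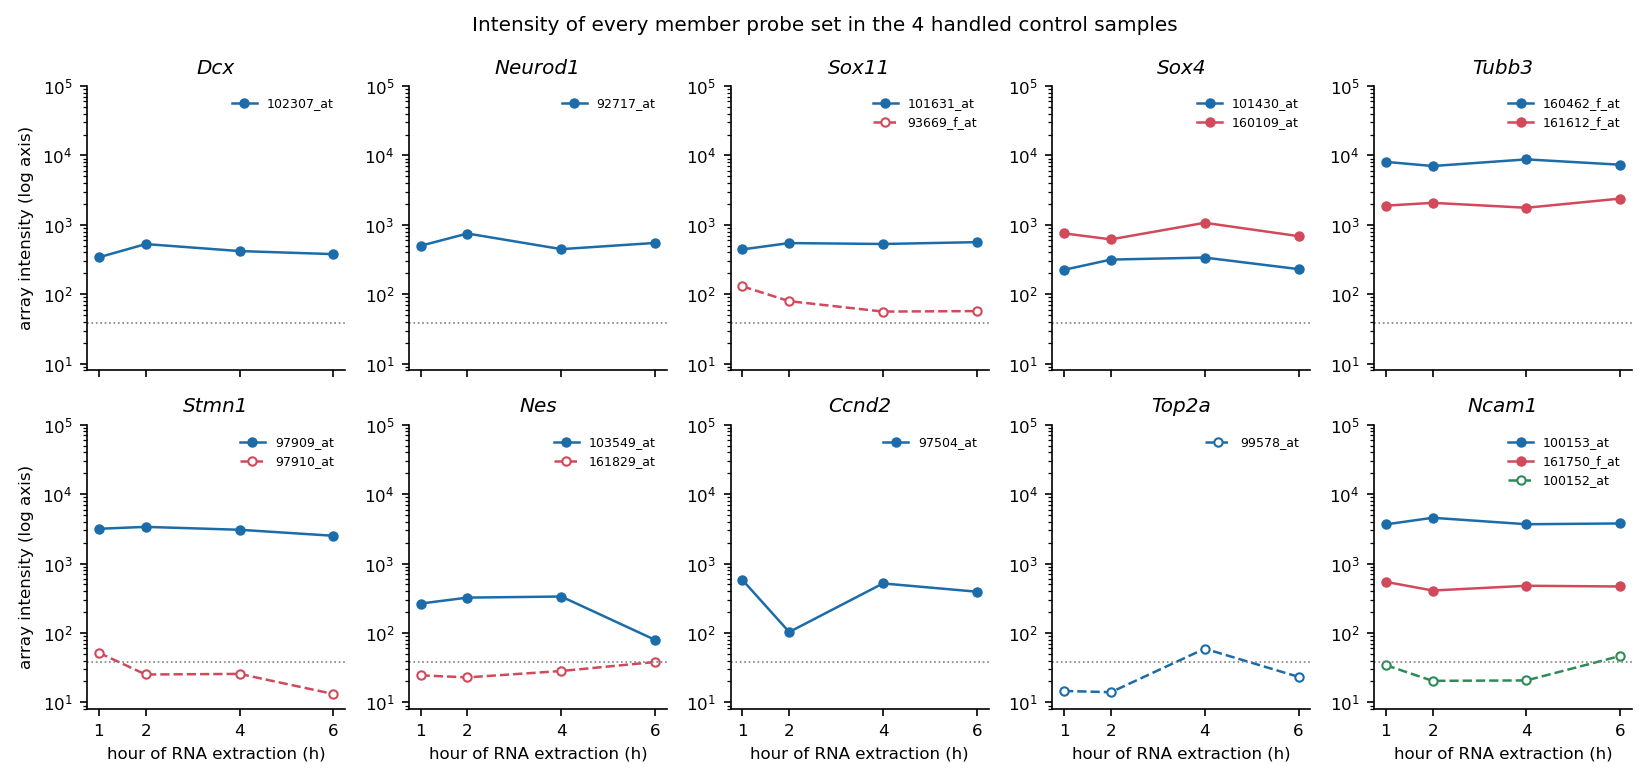
Array intensity (log axis) of each of the 17 member probe sets against the hour of RNA extraction, with 1 array per hour and no error bars. Filled points and solid lines are the 12 probe sets past the filter, open points and dashed lines the others, and the dotted line is the floor of 38.3. Nes falls to 79.4 at 6 h and Ccnd2 to 103.1 at 2 h, while the other probe sets past the filter stay within a 2-fold range.

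Every member probe set past the filter lay above the floor in all 4 samples. Of the 12 member probe sets past the filter, 10 stayed within a 2-fold range over the 4 samples, and the exceptions were the progenitor genes Nes and Ccnd2. Those 2 are 16.7% of the 12, near the 21.6% of all tested probe sets that spanned over 2-fold. The median range was 1.43-fold for the members and 1.53-fold for all tested probe sets. No member had a called trend over the hours: limma's straight-line fit gave 0 of 12 with an adjusted p under 0.05, against 0% (0 of 6500) of all tested probe sets. At an unadjusted p under 0.05 it gave 1 member, Nes, and 136 probe sets overall (2.09%).

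Nestin (Nes), an intermediate filament protein of neural stem cells that is also made by vascular cells, read 265, 322.8, 334.6 and 79.4. The 3 earlier samples lay close together and the 6 h sample lay 3.34-fold under the lowest of them. A line through all 4 values sloped by −0.33 ± 0.14 log2 per h (SE, n = 4, limma adjusted p = 0.99995). Without the 6 h sample the slope was 0.10, so its direction rested on that array. Of all tested probe sets, 1.18% lay over 2-fold below every other hour at 6 h. That hour was looked at because Nes was low there, and the share was 1.35% at 1 h, 0.969% at 2 h and 1.58% at 4 h. Wide ranges were common at the level of this probe set: 40.6% of the 803 probe sets within 0.25 log2 of its mean spanned over 2-fold, against 2.94% of the 170 as near to the first Ncam1 probe set. The second Nes probe set was under the floor in all 4 samples (24.5, 22.9, 28.3 and 38.1) and shows no course. Scaling each array to its median, or quantile normalisation, moved the highest Nes value from 4 h to 2 h and kept the lowest at 6 h.

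Part of the blood vessel markers were low in the same 6 h sample and others were high. Of the 12 endothelial and mural cell markers 8 genes passed the filter, and 5 of their 9 probe sets had their lowest value at 6 h, as did 23.8% of all tested probe sets, while 2 of 9 had their highest there. The summed intensity of the list, with the brightest probe set of each gene, was 3421, 3428, 3595 and 2590, and its median log2 difference from the other hours was −0.50 at 6 h, against 0.01 for all tested probe sets. The tight junction gene Cldn5 read 705.2, 657.5, 516.3 and 379.8 and endoglin (Eng), an endothelial receptor, 973.7, 849.6, 1022.1 and 826.9. Named after their values were seen, the smooth muscle actin gene Acta2 read 195.6, 246.9, 221.1 and 40.6 and the endothelial cadherin Cdh5, under the filter, 168.8, 119.6, 170.9 and 21.1. The 6 h value of Cdh5 was under the floor. Kdr of the same list, named likewise and also under the filter, was lowest at 1 h instead (39, 92.9, 183.1 and 106.7). The 2 probe sets highest at 6 h were one of Flt1, a VEGF receptor, with 75.4, 118.8, 183.6 and 237.7, and that of the pericyte gene Rgs5 past the filter, with 237.4, 231.7, 282.7 and 329.6. A second Flt1 probe set was lowest at 6 h (367.9, 230.9, 407.4 and 219.1). None of the 12 markers was under the floor in every sample. The part of these markers in the Nes value was not tested. Low values at 6 h were not particular to vessel markers. Of 7 CA field and mossy cell probe sets, 4 were lowest at 6 h and 1 was highest, with a median log2 difference of −0.18. Markers of astrocytes, which share genes with radial stem cells, had a median log2 difference of 0.14 at 6 h.

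Cyclin D2 (Ccnd2), the D-type cyclin used by adult hippocampal progenitors to enter the cell cycle, read 583, 103.1, 516.7 and 392.7. The 2 h sample lay 3.81-fold under the next lowest, and the range of 5.65-fold was the widest of the members. At 2 h, 0.969% of all tested probe sets lay over 2-fold below every other hour, and 21.6% of the 873 within 0.25 log2 of its mean spanned over 2-fold. The 2 h sample was looked at because Ccnd2 was low there, and the other hours had shares of 1.18% to 1.58%. The slope over the hours, 0.10 ± 0.17 log2 per h (SE, n = 4), became −0.11 without the 2 h sample and 0.48 without the 1 h sample. Ccnd2 has 1 probe set here, so the low value could not be set against a second one.

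The related cyclins, named after their values were seen, did not share one course. One Ccnd1 probe set was also lowest at 2 h (623.3, 255, 922.8 and 416.9), and the other was highest there (198.4, 246.2, 140.5 and 231.3). Ccnd3 read 505.6, 352.1, 655.8 and 253. Of the 25 probe sets of cell division genes past the filter, 6 had their lowest value at 2 h, as did 23.7% of all tested probe sets.

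**Figure D2:**
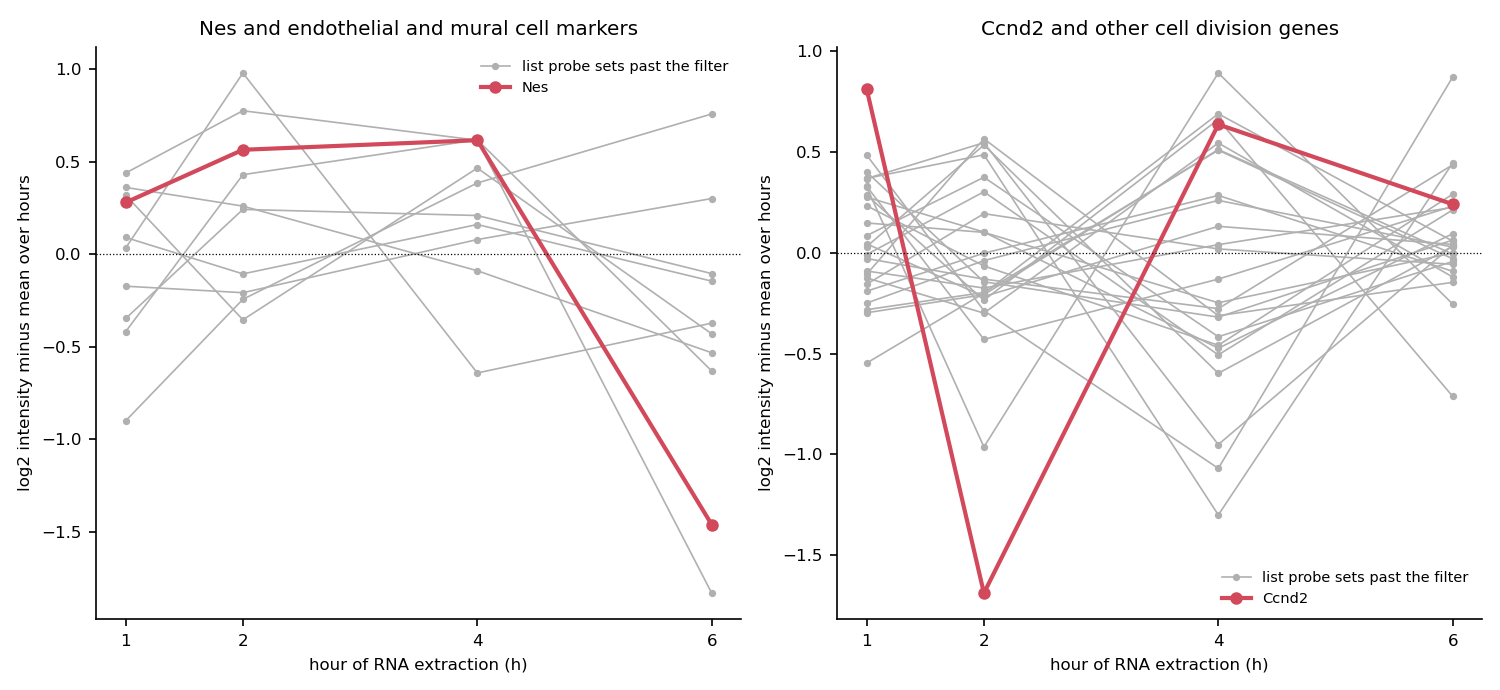
Log2 intensity minus the mean over the 4 hours, by hour of RNA extraction, for Nes with the endothelial and mural cell markers (left) and for Ccnd2 with the other cell division genes (right), probe sets past the filter, 1 array per hour. Nes and 5 of 9 vascular probe sets are lowest at 6 h, and Ccnd2 is lower at 2 h than any other probe set of its list.

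Topoisomerase II alpha (Top2a), which untangles DNA in dividing cells, read 14.6, 14, 59.3 and 23.3. All samples but that at 4 h were under the floor, so no fold is given. The proliferation antigen Mki67 had one probe set with 19.2, 6.8, 59.3 and 5.4 and another, past the filter, with 165.2, 175.8, 289.6 and 202.1. All 3 of these probe sets were highest in the 4 h sample, at which 32.9% of all tested probe sets had their highest value. The first Mki67 probe set, like that of Top2a, was over the floor at 4 h alone. Of the 25 probe sets of cell division genes past the filter, 9 were highest at 4 h and 12 were lowest there. Among all tested probe sets 28.4% were lowest at 4 h. Of the 38 cell division genes with a probe set 21 passed the filter, and Bub1 and Kif11, of the mitotic checkpoint and spindle, were under the floor in every sample.

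RefSeq promoter windows (GRCm38.p6, 250 bases before to 50 after a gene's start) were held for 7 of the 10 genes. Those of Top2a, the division gene near the floor, and of the related factors Sox4 and Sox11 are shown 5′ to 3′ on the gene's strand, because they differ in how many CCAAT boxes they carry. The CCAAT box, bound by NF-Y, is common in promoters of cell cycle genes. Capitals mark CCAAT on either strand (read as ATTGG on the other) and the E-box CANNTG, the core recognised by NeuroD-type factors, and in these windows no match of one overlaps one of the other.
Top2a, chr11:99024140-99024439, minus strand: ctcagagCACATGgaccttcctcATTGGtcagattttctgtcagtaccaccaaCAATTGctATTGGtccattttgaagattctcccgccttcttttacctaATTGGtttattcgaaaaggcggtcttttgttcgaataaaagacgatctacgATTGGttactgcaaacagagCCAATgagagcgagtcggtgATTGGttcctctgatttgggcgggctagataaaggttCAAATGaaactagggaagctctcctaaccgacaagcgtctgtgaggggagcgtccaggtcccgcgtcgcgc
Sox4, chr13:28953650-28953949, minus strand: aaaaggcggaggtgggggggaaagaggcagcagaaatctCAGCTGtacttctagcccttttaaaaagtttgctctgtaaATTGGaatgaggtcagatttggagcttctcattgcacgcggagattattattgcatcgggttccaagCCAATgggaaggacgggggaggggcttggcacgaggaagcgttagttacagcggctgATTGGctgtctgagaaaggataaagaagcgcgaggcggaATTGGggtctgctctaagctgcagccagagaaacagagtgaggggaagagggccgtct
Sox11, chr12:27342669-27342968, minus strand: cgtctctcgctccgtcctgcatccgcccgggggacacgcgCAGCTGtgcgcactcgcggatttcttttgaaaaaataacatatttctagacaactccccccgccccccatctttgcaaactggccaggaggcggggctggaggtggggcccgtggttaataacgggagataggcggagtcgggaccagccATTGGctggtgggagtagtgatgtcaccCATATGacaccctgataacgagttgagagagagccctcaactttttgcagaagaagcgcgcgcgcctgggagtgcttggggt
The Top2a window held 6 CCAAT matches and 3 E-boxes, the Sox4 window 4 and 1, and the Sox11 window 1 and 2. Of 32817 mouse windows of this length, 37.4% held at least 1 CCAAT match and 72.3% at least 1 E-box. At least as many CCAAT matches as in Sox4 were found in 1.06% of windows and at least as many as in Top2a in 0.0792%. These 2 genes held the most CCAAT matches of the 7 genes, and were shown for their counts. The 2 Dcx windows held 1 CCAAT match each and no E-box. Tubb3 had 1 CCAAT match in its window, and Neurod1 and Nes had 0. These matches describe letters in the window, and the arrays do not measure binding there.

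Sox4 and Sox11 encode SoxC factors, which act in neuroblasts to turn on neuronal genes such as Tubb3 and Dcx. Sox11 read 442.5, 546.1, 529.8 and 563.1, a mean of 520 ± 53.7 (SD, n = 4) and a range of 1.27-fold. The 1 h sample was lowest and the others lay within 563.1 and 529.8. A second Sox11 probe set, under the filter and of the kind whose name carries the suffix f for probes that may match related sequences, was highest at 1 h instead (130.1, 79.5, 56.3 and 57.2).

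Sox4 had 2 probe sets past the filter, and they ordered the hours differently. One read 753, 617.7, 1069.9 and 687.2, with 2 h lowest, and the other 224.9, 315.7, 337.7 and 230.1, with 1 h lowest. Both were highest at 4 h as deposited, but with array median scaling the second was highest at 2 h. Their slopes were 0.025 ± 0.079 and −0.0055 ± 0.10 log2 per h (SE, n = 4).

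Neurod1, a factor that drives granule cell differentiation and survival, read 499.1, 749.9, 446.6 and 548.8. The 2 h sample was 1.37-fold above the next highest and the other 3 lay within 548.8 and 446.6. The mean was 561 ± 133 (SD, n = 4) and the slope −0.032 ± 0.081 log2 per h (SE, n = 4).

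Doublecortin (Dcx), the microtubule protein of migrating neuroblasts that is most used to mark adult neurogenesis, had the same high hour. It read 340.3, 528.4, 418.9 and 378.5, a mean of 417 ± 81.2 (SD, n = 4), with the 2 h sample 1.26-fold above the next and 1.55-fold above the lowest, at 1 h. Its slope of −0.0099 log2 per h had a 95% interval from −0.20 to 0.18. Dcx and Neurod1 remained highest at 2 h with array median scaling and with quantile normalisation. Over the members, 4 of 12 probe sets were highest at 2 h, against 22.4% of all tested probe sets, and 4 of 12, including Ccnd2, were lowest there, against 23.7%. The median member lay 0.16 log2 above the other hours there, against 0.01 for all tested probe sets.

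Markers of mature granule cells were mixed at 2 h, where 3 of 8 probe sets were highest and 1, that of Prox1, was lowest. The summed intensity of the granule cell list, over 8 genes with a probe set, was 8345, 9725, 8983 and 8182, and its median log2 difference from the other hours was 0.22 at 2 h. Calb1 read 2541.7, 3026.3, 2505.9 and 2453.3, highest at 2 h, and the granule cell factor Neurod2 read 2483.8, 2474.4, 2808 and 1561.4, highest at 4 h. None of the 8 genes was under the floor in every sample. The 2 h median was also positive for markers of interneurons (0.17), CA field and mossy cells (0.18), microglia (0.14) and endothelial and mural cells (0.32). It was negative for markers of astrocytes (−0.12), oligodendrocytes and precursors (−0.18), and choroid plexus and ependyma (−0.37). The part of the granule cell share in the values of Dcx and Neurod1 was not tested.

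The short list used to check for young neurons held Dcx, Neurod1, Sox11, Calb2, Igfbpl1 and Dpysl3, and its other members gave mixed readings. Calretinin (Calb2), made for a short time by newborn granule cells and also by mossy cells and interneurons, read 1060.4, 1173.3, 1178.8 and 793.4. Igfbpl1, of neuroblasts, had 2 probe sets under the filter, with 171.7, 95.8, 108.1 and 86.4 and with 91, 27.5, 24.1 and 154.5. Dpysl3, a growth cone protein, read 42.6, 30.6, 24.3 and 126.4, with the values at 2 and 4 h under the floor. Of these 6 genes 4 passed the filter, all but Igfbpl1 and Dpysl3, and of the longer list of 45 immature neuron and migration genes 36 did.

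Class III beta-tubulin (Tubb3), the neuronal tubulin isotype, had 2 probe sets, both with the suffix f, so other tubulins may add to them. One read 8076.1, 7034.5, 8770.1 and 7344.4 (mean 7806 ± 777) and the other 1890.5, 2073.9, 1761.8 and 2389.4 (mean 2029 ± 272; SD, n = 4 for both). The 4 h sample was the highest for the first, or the 1 h sample with array median scaling, and the 4 h sample was the lowest for the second. Both ranges were narrow, at 1.25-fold and 1.36-fold.

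Stathmin (Stmn1), which releases tubulin from microtubules and is abundant in young neurons, read 3166.5, 3372.5, 3063.6 and 2510.3, a mean of 3028 ± 368 (SD, n = 4). The 6 h sample was 1.22-fold under the next lowest. Its slope, −0.073 ± 0.054 log2 per h (SE, n = 4), stayed negative without any 1 of the 4 samples. The second probe set was under the floor at 2, 4 and 6 h and read 51.8 at 1 h.

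The neural cell adhesion molecule (Ncam1), which carries polysialic acid on young neurons, had 3 probe sets. The first read 3661.5, 4558.5, 3682 and 3777.8 (mean 3920 ± 429, SD, n = 4), with 3 samples nearly equal and the 2 h sample 1.21-fold above the next. The second, with the suffix f, was lowest at 2 h instead (544.5, 408.5, 478 and 466.7). The third passed the floor at 6 h alone (34.4, 20.4, 20.7 and 46.6). The enzymes that add polysialic acid, named after their values were seen, read 291.7, 377.8, 461.5 and 367 for St8sia2 and 534, 546.5, 419.5 and 461.4 for St8sia4.

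Probe sets of one gene thus differed in the hours they placed highest and lowest. For Tubb3 and Ncam1 the highest hour of one probe set was the lowest hour of another, as it was for 37.1% of the 1109 pairs of tested probe sets of one gene on the array. The root mean square difference of the centred log2 values was 0.27 for the Tubb3 and Ncam1 pairs and 0.31 for the Sox4 pair, and the median over all pairs was 0.34. The SD over the hours was at most 0.34 log2 for every member probe set past the filter other than Nes and Ccnd2, with a median of 0.23 over the 12.

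**Figure D3:**
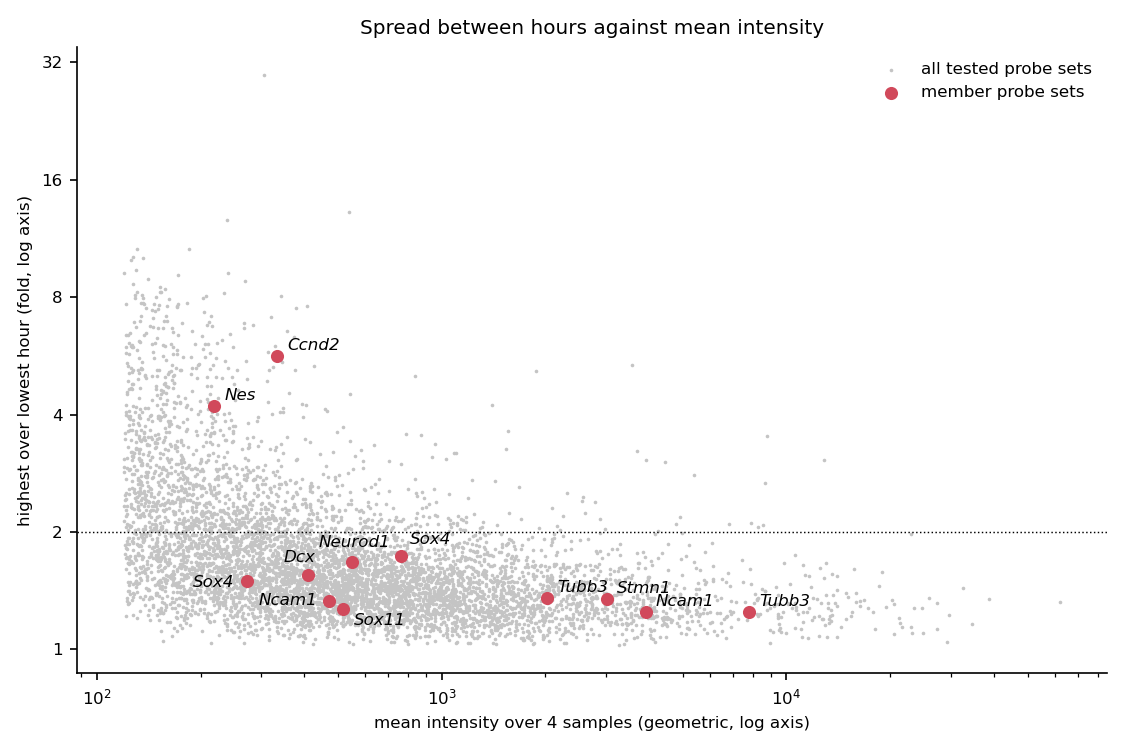
Highest over lowest hour (fold, log axis) against the geometric mean intensity over the 4 samples (log axis), with 1 point per tested probe set. Grey points are all 6500 tested probe sets, red points the 12 of the members, and the dotted line marks 2-fold. Nes at 4.21-fold and Ccnd2 at 5.65-fold lie above the line, and wide ranges become rarer towards bright probe sets.

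Only 4 points underlie a course, so likeness between genes is a description. The probe sets nearest to Nes, by the root mean square difference of centred log2 values, were those of Cryge, a lens crystallin, at 187.1, 208.2, 262.1 and 61.7 (difference 0.11) and of Pfn1, the actin-binding profilin, at 292.7, 441.5, 387.5 and 84.9 (0.14). Within a difference of 0.25, 22 tested probe sets lay near Nes and 6 near Ccnd2. Nearest to Ccnd2 were H2-M3, a class I antigen-presenting molecule, at 303, 59.6, 256 and 267, and the phosphatase Dusp2 at 550.7, 80.9, 376.8 and 381.9, both at a difference of 0.18. Other probe sets did not share these courses: no other Cryge probe set past the filter was lowest at 6 h, and a second H2-M3 probe set, under the filter, was lowest at 6 h (72.9, 113.5, 183.5 and 33.8). The 6 h value of that H2-M3 probe set was under the floor.

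Further genes of the lineage were taken from 4 lists that also contain the members. Limma called 0 of their probe sets in either direction at an adjusted p under 0.05. Among radial stem cell and progenitor genes, 18 of 27 genes passed the filter, 11 of 21 probe sets had a positive slope and the median slope was 0.00 log2 per h. The RNA-binding protein Msi1 read 57.2, 162.8, 196.7 and 195.3, low at 1 h alone, and the growth factor receptor Egfr 75.5, 112.2, 233.6 and 112.7. Fabp7, the fatty acid-binding protein of radial glia, read 1672.7, 2380.7, 880.5 and 1182.3. The narrowest ranges were those of single probe sets of Prom1, Hopx and Id3, at 1.22-fold to 1.26-fold, and a second Prom1 probe set spanned 1.55-fold.

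Among cell division genes, 21 of 42 passed the filter and 14 of 25 probe sets had a positive slope (median 0.02 log2 per h). Of these probe sets 32% spanned over 2-fold. Thymidine kinase (Tk1) read 308.7, 180.8, 105.1 and 403.8 and the mitotic kinase Plk1 305.8, 331.6, 96.1 and 322.4, both lowest at 4 h. At that hour 28.4% of all tested probe sets had their lowest value. A second Plk1 probe set past the filter was lowest at 4 h too (592, 525.1, 352.1 and 522.1), and a second one of Tk1, under the filter, was not (44.6, 39.6, 143.4 and 216.8). One probe set of Cdk4, the partner of D-type cyclins, spanned 1.27-fold (1427.7, 1819.8, 1611.9 and 1528.9) and the other 1.32-fold. The mitotic activator Cdc20 spanned 1.27-fold and Ccne1 1.32-fold.

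Among neuronal lineage transcription factors, 18 of 31 genes passed, 10 of 23 probe sets had a positive slope (median −0.01) and 13% spanned over 2-fold. Nfix, of the nuclear factor I family, had a probe set with 279.1, 172.2, 92.1 and 233.9 and another with 6590.7, 5223.8, 4883.4 and 6500.7, both lowest at 4 h. Tcf3, a partner of NeuroD factors at E-boxes, read 330.2, 211, 485.6 and 452.5, and Zic1 201.3, 383.5, 175.9 and 250.8. The 3 probe sets of Myt1l, a neuronal zinc finger repressor, spanned 1.25-fold, 1.32-fold and 1.89-fold, and that of Tcf12 1.33-fold.

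Among immature neuron and migration genes, 36 of 45 passed, 18 of 49 probe sets had a positive slope and 31 a negative one (median −0.01), where 50.1% of all tested probe sets had a negative slope. Of the 49, 10.2% spanned over 2-fold. The widest were neuronatin (Nnat) at 1144, 366.7, 696.8 and 1307.6, low at 2 h, Ncam2, the paralog of Ncam1, at 239.4, 300.9, 272 and 123.2, low at 6 h, and the Cdk5 activator Cdk5r1 at 86.5, 147, 201.7 and 151.4. The narrowest was a probe set of Stmn2, the growth cone stathmin, at 3735.5, 3620.6, 4044.4 and 3828, followed by single probe sets of Mapt and Ndel1, each at 1.23-fold. Other tested probe sets spanned 1.59-fold for Stmn2 and 1.38-fold and 1.52-fold for Mapt, and the other tested one of Ndel1 was wider too.

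**Figure D4:**
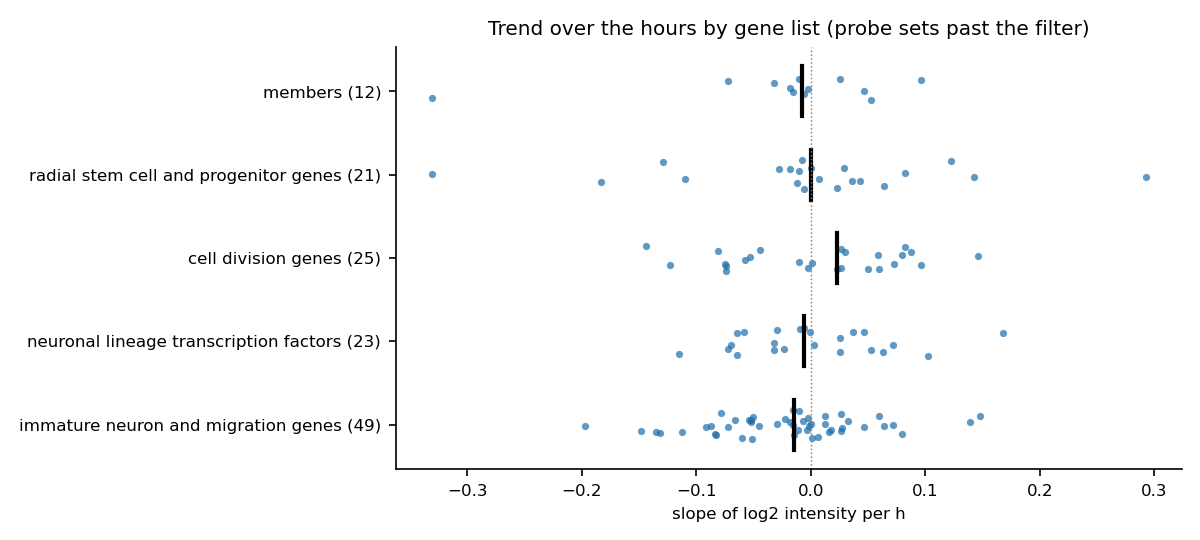
Slope of log2 intensity per h for every probe set past the filter in the members and in 4 lists of lineage genes, with the number of probe sets in brackets and the median as a black bar. Medians lie between −0.01 and 0.02, Nes is the lowest point at −0.33, and no slope was called.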

How the data were processed

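RNA was measured on oligonucleotide arrays. The deposited table gives 1 intensity per probe set and sample; no label states how the authors made it. The trimmed mean, without the top and bottom 2%, was 499.9 on each array, so values were used as deposited. Symbols came from the platform annotation, and those of 10817 of 10833 probe sets with 1 symbol were matched by identifier to RefSeq. Values were floored at the 20th percentile and log2 taken; probe sets with a mean at or above the 40th percentile were tested. The test was a line on the hour in limma 3.58.1 under R 4.3.3 (lmFit, eBayes with intensity trend, 2 residual degrees of freedom, 9.78 prior ones at the median). It was two-sided, with Benjamini-Hochberg adjustment over the 6500 tested probe sets. On simulated data the mean fitted slope was checked against the planted one. That check does not show how many true trends would be called. The number of arrays limits the precision: p-values measure scatter about a line over 4 arrays. Members and lists were chosen with earlier results of these data known. Named are the members, the 3 genes with the widest and the 3 with the narrowest range of each lineage list, the 2 nearest to each member spanning over 2-fold, some of the 2 brightest genes of cell type lists, and short lists of young neuron and dividing cell markers (Calb2, Igfbpl1, Dpysl3, Mki67 besides members); others are said to be chosen after their values were seen. Alternatives changed scaling, floor, pseudocount, filter, probe set choice, time scale, eBayes trend and samples.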

Additional observations from a re-analysis of the deposited data

Results flagged for a closer look

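In 6 of the 56 probe sets taken by the naming rule 1 sample stood apart from the other 3, by a gap whose share of the range of the 4 log2 values was above Dixon's critical value. Chance gives about 1 in 20, and over all tested probe sets the share was 6%. The naming rule took some of the 56 for their range, or for likeness to a member, over these same 4 values. The 6 of 56 thus cannot be read against either share. The ratio of gap to range was 0.838 for Nes, low at 6 h, 0.857 for the first Ncam1 probe set, high at 2 h, and 0.831 for Calb1, high at 2 h. It was 0.847 for Msi1, low at 1 h, 0.935 for Plk1, low at 4 h, and 0.896 for H2-M3, low at 2 h.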

How the results depend on the processing

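With 1 array per hour no value has a replicate error, and probe sets near the floor carry no course. No paired analysis was possible because there is 1 group. Limma called 0 member probe sets under every alternative run, and 0 to 18 of all tested probe sets when 1 sample was left out. The 2 of 12 member probe sets spanning over 2-fold became 3 of 17 without a filter, which adds the second Sox11 probe set. They became 1 of 10 with a filter at the 60th percentile, which drops Nes. Leaving out 1 sample gave 1 to 2 of 12: Ccnd2 alone without 6 h, Nes alone without 2 h. Among all tested probe sets the 1406 of 6500 became 3699 of 10833 without a filter and 393 of 4333 with that stricter filter. For these, leaving out 1 sample gave 787 (without 4 h) to 1060 of 6500. Uncalled slopes turned sign with the log2 of the hour for Dcx (0.029) and the dimmer Sox4 probe set (0.051), and with quantile normalisation for the brighter Tubb3 probe set (0.016). With 1 sample left out they ran from −0.11 to 0.48 log2 per h for Ccnd2, −0.51 to 0.10 for Nes, −0.12 to 0.062 for Dcx, −0.11 to 0.021 for Neurod1, −0.11 to 0.17 and −0.011 to 0.20 for Sox4, −0.022 to 0.057 and −0.046 to 0.063 for Tubb3, and −0.068 to 0.0085 and −0.046 to 0.048 for Ncam1. Those of Sox11 and Stmn1 kept their sign throughout. Array median scaling moved the median 4 h difference of all tested probe sets from 0.04 to −0.15 log2. The cause of these changes was not tested beyond the samples and filters named.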

Other observations

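Some genes of the lineage under the filter, chosen after their values were seen, had probe sets that read differently. Hes5, the Notch target of stem cells, read 34.3, 64.9, 166.3 and 225.4 in one probe set and 29.2, 81.2, 161 and 10.2 in another, with 1 and 2 values under the floor, highest at 6 h in the first and at 4 h in the second. Eomes, the factor of intermediate progenitors, read 5.1, 18, 77.1 and 40 in one and 57.8, 29.4, 13.1 and 104.9 in the other, with 2 of the 4 values under the floor in each. No test was made of either.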
